A study of Mus musculus with 9 samples.

Results

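The genes described here act on procollagen between its synthesis and its assembly into fibrils. They are 9 genes chosen by name: the lysyl hydroxylases Plod1, Plod2 and Plod3, the prolyl 3-hydroxylation complex members Crtap and Ppib, the isomerase Fkbp10, the C-proteinase Bmp1, and its enhancers Pcolce and Pcolce2. All 9 were found among the 43472 genes of the count table, and all 9 were among the 14257 genes with enough reads to be tested. RNA-seq had been run on 9 libraries of skeletal tissue from C57BL/6J mice. Immature cartilage (ImC, labelled as immature chondrocytes), mature cartilage (MatC, mature chondrocytes) and bone (Bone, osteoblasts) had 3 libraries each. The labels named no mutant allele, agent, age or anatomical site, and did not say whether the 3 libraries of a tissue came from separate animals, so the p-values cover only how far these libraries spread.

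Collagen chains are modified in the endoplasmic reticulum before they wind into a triple helix. Lysyl hydroxylases make the hydroxylysines that carry sugars and, in the telopeptides, set the chemistry of the cross-links between mature fibrils. Prolyl hydroxylases, isomerases and chaperones stabilise and fold the helix, and outside the cell the C-propeptide is cut off so that fibrils can form. Cartilage makes mainly type II collagen and bone mainly type I, and inherited loss of several of these enzymes and chaperones gives brittle bone or Bruck syndrome.

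Total counts ran from 7913684 to 23159547 reads per library. ImC libraries held 44.1% ± 11.6 reads of mitochondrially encoded genes, MatC libraries 61.7% ± 25.1 and Bone libraries 8.01% ± 0.84 (SD, n = 3 each). MatC replicate 3 stood apart with 82.3% mitochondrial reads and 14940 genes with a read. Its rank correlations with MatC replicates 1 and 2 were 0.850 and 0.870, against 0.917 between those. Within ImC, replicate 3 had the lowest rank correlations, 0.888 and 0.842 against 0.959 between replicates 1 and 2. Levels are given as CPM, reads scaled to the size of each library times its TMM factor for composition. Summed levels of 5 chondrocyte markers were 12077 to 15744 CPM in ImC, 13577, 7144 and 15336 in MatC replicates 1 to 3, and 343 to 715 in Bone. Those of 4 hypertrophic chondrocyte markers were 32.3 to 58.8 CPM in ImC, 2296, 1771 and 6113 in MatC, and 1080 to 1208 in Bone, and all 4 were called higher in MatC than in ImC. The 4 differed within Bone: Mef2c was at 653 to 744 CPM and Panx3 at 380 to 546, but Col10a1 at 0.845 to 2.48 and Ihh at 1.79 to 3.66. From MatC to Bone 2 of the 4 were called lower, and from ImC to Bone 3 were called higher. Summed levels of 5 osteoblast markers were 120 to 375 CPM in ImC, 3644, 14231 and 684 in MatC, and 37907 to 43364 in Bone. Markers of other cells also differed between the tissues. From ImC to Bone, 4 of 5 endothelial, 4 of 4 osteoclast, 4 of 4 macrophage, 2 of 7 perichondrial and tendon and 1 of 4 muscle markers were called higher, with summed levels of 0.745 to 9.83 and 29.0 to 97.8 CPM, 4.77 to 6.75 and 327 to 637 CPM, 2.08 to 4.99 and 20.7 to 60.2 CPM, 105 to 687 and 578 to 1395 CPM, and 0.0833 to 3.99 and 0.599 to 43.7 CPM. None of 4 erythroid markers was called, at 8.25 to 1063 CPM in ImC and 4847 to 6840 CPM in Bone. Dpt, Tnmd, Calcr, C1qa and Ckm were at 0 in all ImC libraries. In MatC the same lists summed to 11.03 to 161 CPM (endothelial), 8.203 to 280 CPM (osteoclast), 4.24 to 44.9 CPM (macrophage), 1026 to 1815 CPM (perichondrial and tendon), 10.9 to 153 CPM (muscle) and 666 to 2637 CPM (erythroid). The part of these cells in the differences below was not tested, and in bulk tissue fewer cells of a type and less RNA per cell cannot be told apart.

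Between bone and immature cartilage the genes of different roles differed in direction. All 3 lysyl hydroxylases were lower in Bone, and Crtap and Ppib were higher. These 5 of 9 passed edgeR's quasi-likelihood test at a Benjamini-Hochberg adjusted p under 0.05, a threshold that 31.1% of all tested genes passed (14.3% higher in Bone and 16.8% lower). The libraries of the tissues did not overlap for 8 of the 9, with 5 higher and 3 lower in Bone, against 59.0% of all genes (30.1% higher and 28.8% lower). The median log2 fold change over the 9 was 1.08, and -0.02 over all genes. Without the normalisation for composition, scaling by library size only, the count of members called fell to 2, Fkbp10 and Bmp1, both higher in Bone. In that setting 1224 of all genes were called higher in Bone and 849 lower.

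The cartilage comparison and the comparison of bone with mature cartilage separated fewer of the genes. Between MatC and ImC, 0 of the 9 passed edgeR's test, where 7.71% of all genes did (5.41% higher in MatC and 2.29% lower). At an unadjusted p under 0.05 there were 4 (the 3 Plod genes and Crtap), a level at which all genes were not counted. DESeq2 called 2 (Plod1 and Crtap), and of all genes it called 1373 higher in MatC and 856 lower. With limma-voom 0 members were called, and of all genes 699 were called higher and 383 lower. Groups did not overlap for 5 of the 9, with Crtap and Pcolce2 higher in MatC and the 3 Plod genes lower, against 23.9% of all genes. Between Bone and MatC, 1 of the 9 passed, Plod2, which was lower in Bone, against 6.05% of all genes (1.36% higher in Bone and 4.69% lower). Groups did not overlap for 5 of the 9 there, with Crtap, Fkbp10 and Pcolce higher in Bone and Plod2 and Plod3 lower, against 35.6% of all genes. Member medians of the log2 fold change were 0.22 for MatC against ImC and 0.32 for Bone against MatC, with 0.03 and -0.03 over all genes. These comparisons share libraries, so their values are given side by side.

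**Figure D1:**
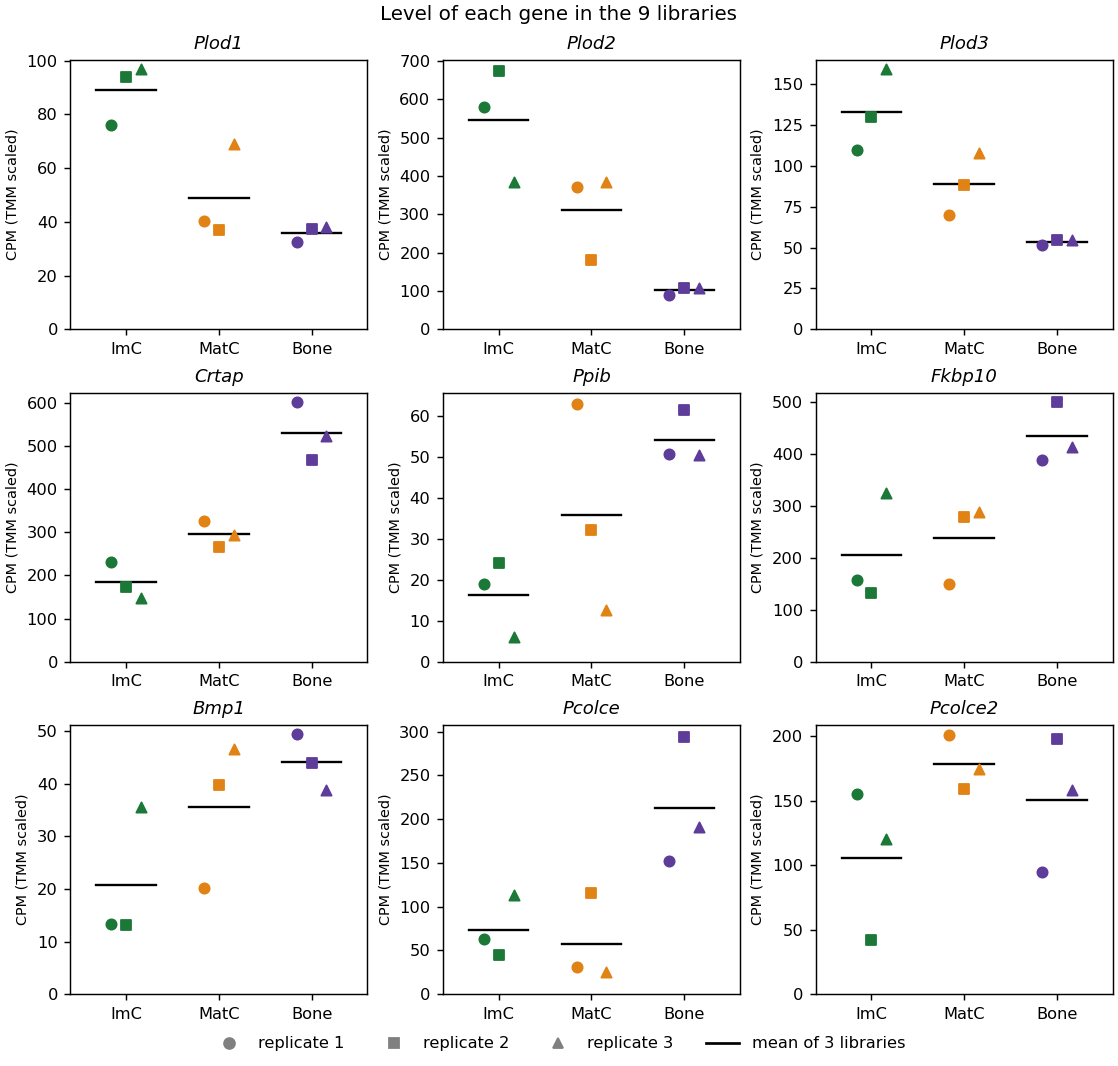
CPM of each of the 9 genes in each of the 9 libraries by tissue, on axes that start at 0, with points for libraries and horizontal lines for the means of 3. The 3 Plod genes fall from ImC to Bone, and Crtap is highest in the 3 Bone libraries (601.9, 468.2 and 524.4 CPM).

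For 6 of the 9 genes RefSeq's promoter table held a window, and 3 windows held no annotated exon: those of Plod1, Crtap and Ppib, which were also all called between Bone and ImC, Plod1 lower and the others higher. The 250 bases before each RefSeq start are printed 5′ to 3′ on the gene's strand, on GRCm38.p6: Plod1 at chr4:147936777-147937026 (minus strand), Crtap at chr9:114390713-114390962 (minus strand) and Ppib at chr9:66059919-66060168 (plus strand). They are shown because these windows held no annotated exon. Capitals mark every match, on either strand, to the motifs listed after them.
Plod1: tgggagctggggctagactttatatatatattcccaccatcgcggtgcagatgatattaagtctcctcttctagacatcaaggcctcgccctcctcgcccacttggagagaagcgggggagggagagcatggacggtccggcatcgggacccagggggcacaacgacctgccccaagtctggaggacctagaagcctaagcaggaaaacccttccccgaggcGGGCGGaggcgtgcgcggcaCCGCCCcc
Crtap: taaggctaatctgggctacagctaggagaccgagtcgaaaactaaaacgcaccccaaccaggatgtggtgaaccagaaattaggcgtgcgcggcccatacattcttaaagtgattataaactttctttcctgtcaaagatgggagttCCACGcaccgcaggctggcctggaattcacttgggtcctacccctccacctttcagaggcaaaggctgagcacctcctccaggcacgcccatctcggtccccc
Ppib: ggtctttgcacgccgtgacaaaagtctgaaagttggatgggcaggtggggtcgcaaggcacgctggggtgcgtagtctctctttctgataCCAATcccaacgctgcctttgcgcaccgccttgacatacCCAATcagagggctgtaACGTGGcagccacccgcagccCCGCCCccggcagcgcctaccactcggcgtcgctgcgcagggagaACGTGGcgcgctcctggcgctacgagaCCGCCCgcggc
The motifs were the CCAAT box (CCAAT), the GC box (GGGCGG), the endoplasmic reticulum stress element II, the core of hypoxia response elements (ACGTG) and a short element of unfolded protein response promoters (CCACG). They were chosen after the expression values had been seen. The Plod1 window held 2 GC boxes and the Crtap window 1 CCACG. The Ppib window held 2 CCAAT boxes, 2 GC boxes, 2 ACGTG and 2 CCACG, and each ACGTG shared letters with a CCACG on the other strand. Of 32851 promoter windows of this length, 33.8% held CCAAT, 32.7% GGGCGG, 16.6% ACGTG, 28.3% CCACG and 0.0304% the endoplasmic reticulum stress element II. The 3 windows were 61.6%, 53.6% and 65.2% G or C, with a median of 52.4% over all windows. Matches are a description of these letters.

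Plod2 hydroxylates lysines of the collagen telopeptides and lies on chromosome 9 (92542223 to 92608428, plus strand, GRCm38). It was measured at 579.8, 673.6 and 385.2 CPM in ImC replicates 1 to 3, 370.9, 181.0 and 383.6 in MatC, and 89.4, 107.5 and 108.1 in Bone. The highest Bone library lay below the lowest MatC library, and every ImC library lay above every MatC library, though MatC replicate 3 came close to ImC replicate 3. It was 5.37-fold lower in Bone than in ImC (log2 fold change -2.43 ± 0.37 SE, adjusted p = 0.00156) and 3.07-fold lower in Bone than in MatC (-1.62 ± 0.36, adjusted p = 0.0281). The MatC to ImC difference was -0.81 ± 0.35 (adjusted p = 0.185). The Bone to ImC call was kept in 18 of 19 alternatives. It ended with library size only, at -1.996 (adjusted p = 0.0668), where the median of all genes was 0.46. The Bone to MatC call was kept in 11 of 19, with adjusted p up to 0.469. It ended with library size only, where the log2 fold change was -0.64 beside 0.95 over all genes, with a replicate block (adjusted p = 0.0507), and without ImC replicate 1, MatC replicate 1, MatC replicate 3 or any 1 Bone library.

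Plod1 and Plod3 followed the same order of tissues at lower levels. Plod1, which hydroxylates lysines within the triple helix, lies on chromosome 4 (147909753 to 147936767, minus strand). It was at 76.2, 94.0 and 97.0 CPM in ImC, 40.3, 37.1 and 69.0 in MatC, and 32.6, 37.4 and 37.9 in Bone. The MatC and Bone libraries overlapped, and both lay below ImC. Plod1 was 2.47-fold lower in Bone than in ImC (-1.31 ± 0.29, adjusted p = 0.00841). Its MatC to ImC difference was -0.87 ± 0.29 (adjusted p = 0.0942), and this passed with DESeq2, without MatC replicate 3 (-1.18, adjusted p = 0.0214) and without replicate 3 of both cartilages, with adjusted p from 0.0131 to 0.287 over the alternatives.

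Plod3, a lysyl hydroxylase that also adds glucose and galactose to hydroxylysine, lies on chromosome 5 (136987019 to 136996648, plus strand). It was at 109.4, 129.997 and 159.3 CPM in ImC, 70.1, 88.0 and 107.8 in MatC, and 51.4, 54.6 and 54.7 in Bone, with no overlap between any of the tissues. It was 2.48-fold lower in Bone than in ImC (-1.31 ± 0.26, adjusted p = 0.00568), and the other differences were -0.59 ± 0.26 for MatC against ImC (adjusted p = 0.194) and -0.72 ± 0.26 for Bone against MatC (adjusted p = 0.133). Exons of Znhit1 on the other strand share 529 of the 4519 exon bases of Plod3, and Znhit1 had 1989 reads beside 11282 for Plod3. The Bone to ImC calls of Plod1 and Plod3 were kept in 18 of 19 alternatives. With library size only they were -0.81 (adjusted p = 0.299) and -0.79 (adjusted p = 0.303), beside a median of 0.46 over all genes. The Bone to MatC differences of Plod1 (-0.43) and Plod3 changed sign in that setting, to 0.73 and 0.42, where the median of all genes was 0.95.

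The makeup of the lysyl hydroxylase reads differed between bone and cartilage libraries. Among their summed reads the share of Plod2 was 75.76%, 75.05% and 60.04% in ImC, 77.1%, 59.1% and 68.5% in MatC, and 51.6%, 53.9% and 53.8% in Bone. The Bone libraries lay below all 6 cartilage libraries. The share of Plod1 was 11.8% ± 2.8 in ImC, 10.9% ± 2.2 in MatC and 18.8% ± 0.1 in Bone, and that of Plod3 was 17.9% ± 6.0, 20.8% ± 7.2 and 28.1% ± 1.3 (SD, n = 3). Plod1 was above both cartilages in Bone without overlap, and Plod3 only above ImC. Each of these non-overlapping differences had a two-sided exact permutation p of 0.1, the smallest that 3 against 3 libraries can give, and 0.171 after adjustment over 12 such tests.

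**Figure D2:**
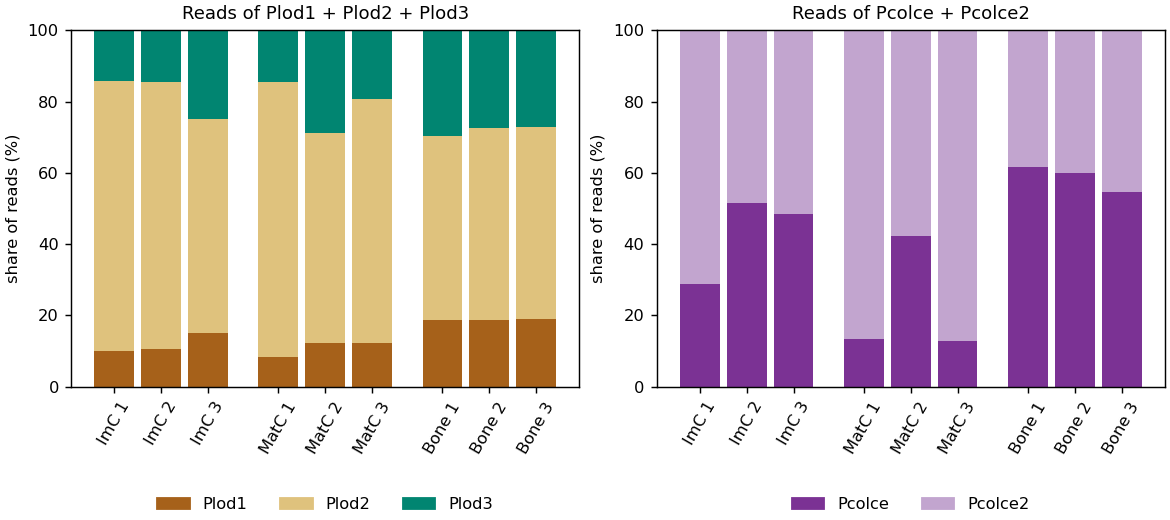
Stacked bars of the share of each gene in the summed reads of its family, in percent, 1 bar for each library, with Plod1, Plod2 and Plod3 in the first panel and Pcolce and Pcolce2 in the second. Plod2 makes up 51.6% to 53.9% of Plod reads in Bone and 59.1% to 77.1% in the cartilage libraries.

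Crtap and Ppib belong, with a prolyl 3-hydroxylase, to the complex that 3-hydroxylates single prolines of the collagen chains and assists folding. Crtap encodes cartilage-associated protein and lies on chromosome 9 (114375134 to 114390675, minus strand). It was at 231.0, 173.3 and 148.2 CPM in ImC, 326.1, 266.4 and 295.0 in MatC, and 601.9, 468.2 and 524.4 in Bone, so the tissues did not overlap. The steps were 0.68 ± 0.27 (adjusted p = 0.156) from ImC to MatC and 0.85 ± 0.27 (adjusted p = 0.100003) from MatC to Bone, where the second passed in 2 of 19 alternatives, DESeq2 (adjusted p = 0.0106) and ImC replicate 3 left out (adjusted p = 0.0484, with a range of 0.0106 to 0.303 among alternatives). Crtap was 2.89-fold higher in Bone than in ImC (1.53 ± 0.28, adjusted p = 0.0037). That call was kept in 18 of 19 alternatives and ended with library size only (1.998, adjusted p = 0.0514).

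Ppib encodes cyclophilin B, a proline isomerase, and lies on chromosome 9 (66060222 to 66066623, plus strand). It was at 19.0, 24.0 and 5.91 CPM in ImC, 62.8, 32.1 and 12.7 in MatC, and 50.6, 61.4 and 50.5 in Bone. The lowest library of each cartilage was its replicate 3, and MatC overlapped both other tissues. Ppib was 3.31-fold higher in Bone than in ImC (1.73 ± 0.59, adjusted p = 0.0464), a call kept in 12 of 19 alternatives with adjusted p from 0.00587 to 0.153. It ended with library size only, without ImC replicate 1 or 3, without MatC replicate 2 and without any 1 Bone library. Without ImC replicate 3 the value was 1.34 (adjusted p = 0.0898). Exons of Snx22 on the opposite strand share 825 of the 3305 exon bases of Ppib, and Snx22 had 536 reads beside 4672 for Ppib. Because the kit keeps no strand, reads where such genes overlap may come from either. How such reads were counted was not stated.

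Fkbp10 encodes FKBP65, an isomerase and collagen chaperone linked to telopeptide lysine hydroxylation, and lies on chromosome 11 (100415697 to 100424824, plus strand). It was at 157.1, 131.7 and 325.5 CPM in ImC, 148.9, 278.5 and 288.5 in MatC, and 389.5, 500.1 and 413.3 in Bone. All Bone libraries lay above all 6 cartilage libraries, and ImC replicate 3 stood above the other ImC libraries. The Bone to ImC difference was 1.08 ± 0.40 (adjusted p = 0.062). It passed in 8 of 19 alternatives, among them those without ImC replicate 3 (1.59, adjusted p = 0.0102) and without MatC replicate 1, with adjusted p from 0.00481 to 0.165. The Bone to MatC difference was 0.86 ± 0.40 (adjusted p = 0.229). The MatC to ImC difference, 0.22 ± 0.40 (adjusted p = 0.773), was -0.40 with library size only, beside -0.51 over all genes. Exons of Nt5c3b on the other strand share 193 of the 2935 exon bases of Fkbp10, and Nt5c3b had 1963 reads beside 36421 for Fkbp10.

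Bmp1, the metalloproteinase that removes the C-propeptide of fibrillar procollagens, had the lowest mean level per length of the members in each tissue. It lies on chromosome 14 (70474558 to 70520234, minus strand). It was at 13.3, 13.2 and 35.5 CPM in ImC, 20.2, 39.7 and 46.7 in MatC, and 49.4, 43.9 and 38.9 in Bone. The Bone libraries were above all ImC libraries, the nearest being ImC replicate 3, and overlapped those of MatC. The Bone to ImC difference was 1.09 ± 0.44 (adjusted p = 0.0823). Without ImC replicate 3 it was 1.74 (adjusted p = 0.00849), and the MatC to ImC difference, 0.78 ± 0.44 (adjusted p = 0.311), was 1.41 (adjusted p = 0.0453). Over the alternatives the adjusted p ran from 0.00299 to 0.209 for the first and from 0.0427 to 0.903 for the second.

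Pcolce and Pcolce2 encode secreted glycoproteins that bind the C-propeptide and speed its removal by Bmp1. Pcolce, on chromosome 5 (137605103 to 137613784, minus strand), was at 62.5, 44.7 and 113.2 CPM in ImC, 30.8, 115.5 and 25.5 in MatC, and 152.1, 294.1 and 190.7 in Bone. Each Bone library was above every cartilage library, and within MatC replicate 2 stood above the others. MatC replicate 2 also had the highest summed osteoblast markers of the MatC libraries (14231 CPM). The same held for its endothelial (161), osteoclast (280), macrophage (44.9), erythroid (2637) and muscle (153) markers. Its summed chondrocyte (7144), hypertrophic chondrocyte (1771) and perichondrial and tendon (1026) markers were the lowest of the MatC libraries. Single markers of the last 2 lists did not all follow the sums. Ihh, Panx3, Lum, Postn and Tnmd were lowest in MatC replicate 2. Col10a1, Mef2c, Col3a1 and Scx were not, and Dcn was highest in it (67.5 CPM). The relation of Pcolce to any of these was not tested. The differences were 1.53 ± 0.59 (adjusted p = 0.0708) for Bone against ImC and 1.88 ± 0.59 (adjusted p = 0.0928) for Bone against MatC. The former passed in 8 of 19 alternatives, with adjusted p from 0.0108 to 0.206, among them those without ImC replicate 3 (1.99), without MatC replicate 2 (1.55) and without MatC replicate 3 (1.58). The latter passed in 3 of 19 alternatives: DESeq2 (adjusted p = 0.0146), no filter (adjusted p = 0.00646) and MatC replicate 2 left out (2.92, adjusted p = 0.0142, with a range of 0.00646 to 0.290 among alternatives). The MatC to ImC value, -0.35 ± 0.58 (adjusted p = 0.747), changed sign without replicate 3 of either tissue.

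Pcolce2, on chromosome 9 (95637601 to 95698096, plus strand), was at 155.4, 42.0 and 119.9 CPM in ImC, 200.7, 158.7 and 174.8 in MatC, and 94.5, 197.6 and 158.6 in Bone. MatC lay above all ImC libraries, while Bone overlapped both cartilages. None of its differences passed: 0.75 ± 0.45 for MatC against ImC (adjusted p = 0.334), 0.51 ± 0.45 for Bone against ImC (adjusted p = 0.410) and -0.25 ± 0.45 for Bone against MatC (adjusted p = 0.792). The last was 0.71 with library size only, beside 0.95 over all genes. The share of Pcolce in the reads of the pair was 28.7%, 51.5% and 48.6% in ImC, 13.3%, 42.1% and 12.7% in MatC, and 61.7%, 59.8% and 54.6% in Bone. The Bone shares lay above all cartilage shares (exact permutation p = 0.1 for each tissue, adjusted 0.171).

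**Figure D3:**
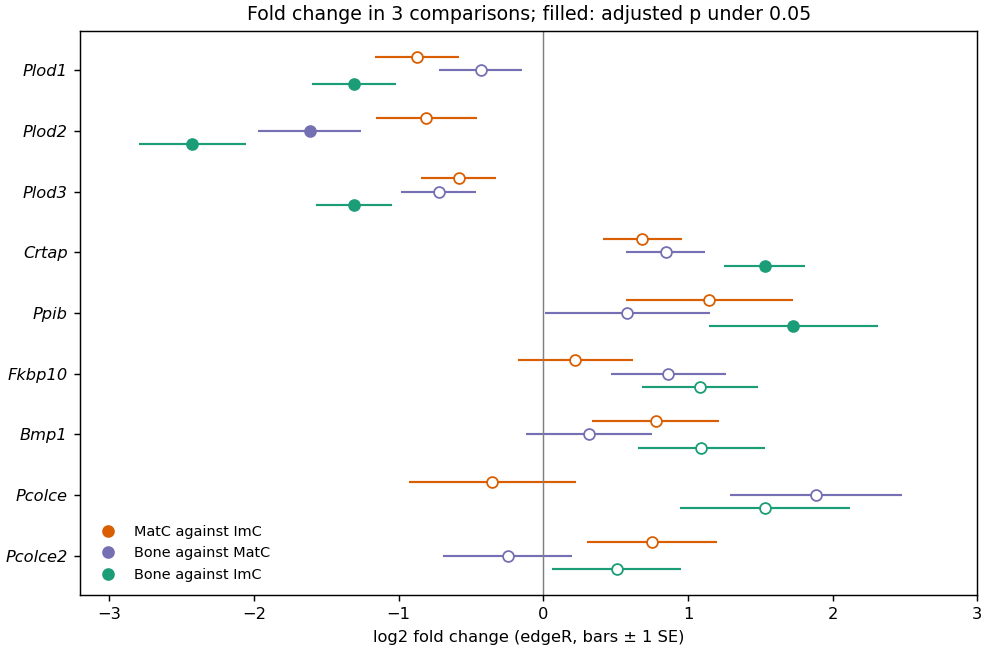
Log2 fold change of each of the 9 genes in the 3 comparisons between tissues, with bars of 1 SE from edgeR and filled points for an adjusted p under 0.05. Bone against ImC has 5 filled points, Bone against MatC 1 (Plod2) and MatC against ImC 0.

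A study title that speaks of averaging and synergism raises the question of whether mature cartilage lies between the other tissues. Against the midpoint of ImC and Bone on the log2 scale, 0 of the 9 genes passed edgeR's test, where 3.06% of all genes did (2.98% higher and 0.0772% lower). At an unadjusted p under 0.05 there were also 0, and DESeq2 and limma-voom called 0. Pcolce had the largest distance from the midpoint, -1.12 ± 0.53 (adjusted p = 0.356), and was -2.15 without MatC replicate 2 (adjusted p = 0.0497, and up to 0.677 over the alternatives). Crtap was at -0.08 (adjusted p = 0.922) and Plod3 at 0.07 (adjusted p = 0.932). The sign of the distance changed with library size only for Plod2 (0.40 to -0.35), Plod3 (to -0.82), Ppib (0.28 to -0.17), Bmp1 (0.23 to -0.73) and Pcolce2 (0.50 to -0.17), where the median of all genes was -0.71. A distance that misses the threshold does not show that a gene sits at the midpoint.

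Levels per length gave each tissue its own order of the 9 genes. In ImC, Crtap (104 ± 23.9 CPM per kilobase of exon) and Plod2 (101 ± 27.3) led, followed by Fkbp10 (69.8 ± 35.9) and Plod3 (29.4 ± 5.55), and only the steps from Fkbp10 to Plod3 and from Plod1 to Ppib were without overlap between neighbours. In MatC, Crtap led at 167 ± 16.9, above Fkbp10 at 81.3 ± 26.5 and Plod2 at 57.8 ± 21.0. In Bone, Crtap stood at 299.95 ± 37.9, Fkbp10 at 148 ± 19.8 and Pcolce at 55.5 ± 19.2, while Plod2 followed Pcolce2 at 18.9 ± 1.96. Bmp1 had the lowest mean in each, at 2.33, 4.01 and 4.97. Its libraries overlapped those of Ppib in ImC and in MatC and those of Plod1 in Bone. In MatC replicate 3, Bmp1 (5.26) was above Ppib (3.85). With the longest transcript as the length, Plod2 preceded Crtap in ImC (149 against 110.0).

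Levels were also expressed relative to the reads of the fibrillar procollagen chains, the mRNAs of the proteins these enzymes act on. The 8 fibrillar chains took 1.34% to 1.74% of the reads in ImC, 0.517% to 2.58% in MatC and 10.3% to 12.0% in Bone, and type I chains made up 3.11% to 3.81% of them in ImC, 29.4%, 66.8% and 3.58% in MatC and 91.4% to 91.6% in Bone. Plod2 had 38.6, 50.1 and 22.9 reads per 1000 fibrillar procollagen reads in ImC, 18.5, 6.46 and 24.3 in MatC, and 1.27, 1.32 and 1.59 in Bone. Its Bone libraries were far below all cartilage libraries, and the geometric mean in Bone was 25.6-fold lower than in ImC. On the log2 scale this difference was -4.68, beside edgeR's log2 fold change of -2.43 for Plod2 without the collagen denominator. Plod1 was at 5.94 ± 0.97 in ImC and 0.49 ± 0.06 in Bone, and Plod3 at 8.81 ± 1.32 and 0.73 ± 0.07 (SD, n = 3).

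The other members also had lower mean ratios in Bone than in ImC, by smaller factors, although the mean CPM of each was higher in Bone. Crtap, whose CPM was highest in Bone, had 12.4 ± 3.32 reads per 1000 in ImC, 14.8 ± 4.77 in MatC and 7.33 ± 1.43 in Bone, without overlap of Bone with either cartilage. Fkbp10 went from 13.2 ± 5.33 in ImC to 5.91 ± 0.34 in Bone, Bmp1 from 1.33 ± 0.68 to 0.60 ± 0.09 and Pcolce2 from 6.86 ± 3.62 to 2.03 ± 0.60, all without overlap. Ppib (1.13 ± 0.73 and 0.74 ± 0.02) and Pcolce (4.74 ± 1.78 and 2.86 ± 0.73) overlapped between the tissues. Each non-overlapping ratio had a two-sided exact permutation p of 0.1, adjusted 0.16 over 27 tests. The ratios rise and fall with the collagen reads in their denominator. The summed level of the fibrillar chains was 13446 to 16826 CPM in ImC and 68114 to 81463 CPM in Bone. A gene with equal CPM in both tissues would therefore have a lower ratio in Bone. Such ratios were not computed over all genes, so a lower ratio in Bone is not shown to be particular to these members.

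**Figure D4:**
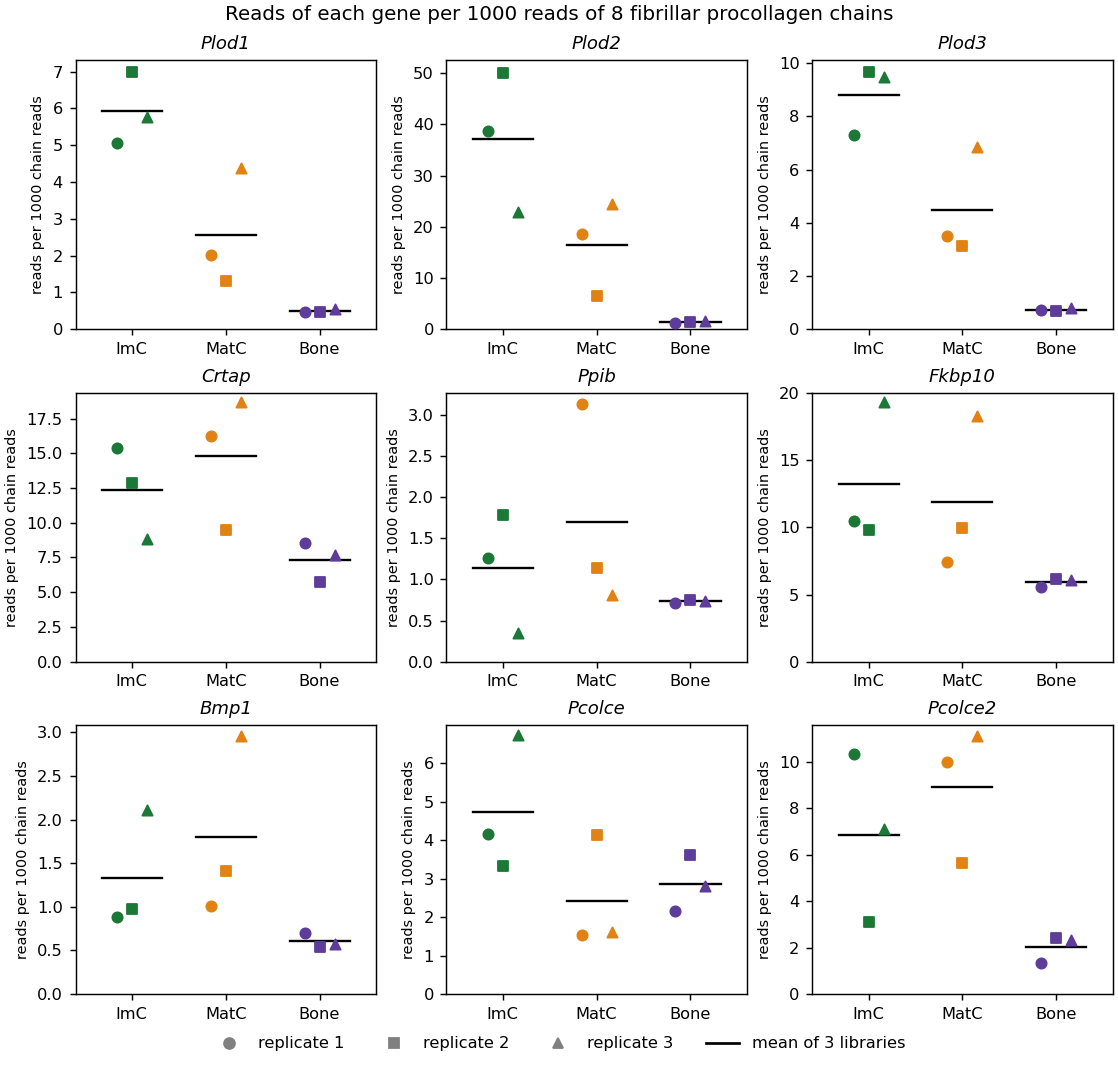
Reads of each of the 9 genes per 1000 reads of the 8 fibrillar procollagen chains, by library on axes that start at 0, with horizontal lines for the means of 3. The 3 Plod genes have their lowest values in Bone, where Plod2 is at 1.27 to 1.59.

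The other genes of the pathway, 25 genes in 26 entries of the table with prolyl hydroxylases, collagen glycosyltransferases, chaperones, export factors and further propeptide proteases, gave 24 tested entries. Tll2 and the entry named Mia2 were not tested, while Ctage5, the other entry of the Mia2 gene, was tested. In Bone against ImC 7 were higher and 4 lower, in Bone against MatC 1 higher and 2 lower, and in MatC against ImC 2 higher and 2 lower, with list medians of the log2 fold change of 0.32, 0.34 and 0.04. Over all genes the medians were -0.02, -0.03 and 0.03, and 14.3% were called higher and 16.8% lower, 1.36% and 4.69%, and 5.41% and 2.29%, in the same order. The galactosyltransferase Colgalt2, which glycosylates hydroxylysine, was at 205, 139 and 189 CPM in ImC, 125, 67.8 and 196 in MatC, and 2.17, 3.94 and 4.90 in Bone. It was 48.4-fold lower in Bone than in ImC (-5.60 ± 0.51, adjusted p = 0.000138) and lower than in MatC (-5.14 ± 0.50, adjusted p = 0.000398), in all 19 alternatives. It was the 1 gene of the list above the midpoint in MatC (2.34 ± 0.35, adjusted p = 0.00675), a call that ended with library size only.

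Creb3l1, a transcription factor of secretory cells, was at 0.583, 0.397 and 1.21 CPM in ImC, 21.2, 92.8 and 6.22 in MatC, and 183, 185 and 251 in Bone. It was higher in MatC than in ImC (5.80 ± 0.94, adjusted p = 0.00823) and in Bone than in ImC (8.15 ± 1.02, adjusted p = 0.000629), with MatC replicate 2 the highest of the MatC libraries. The coat proteins of export vesicles, Sec23a (1.95 ± 0.48, adjusted p = 0.0138) and Sec24d (2.09 ± 0.46, adjusted p = 0.00856), were higher in Bone than in ImC, and each call ended with library size only. Fkbp7, an isomerase like Fkbp10, was higher by 3.99 ± 0.71 (adjusted p = 0.00341) in all 19 alternatives. The chaperone Serpinh1 (HSP47) was higher by 1.06 ± 0.32 (adjusted p = 0.0311), a call kept in 11 of 19 and ended without ImC replicate 1 or 2 or any 1 Bone library.

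Of the other hydroxylases, the prolyl 4-hydroxylase subunit P4ha3 was lower in Bone than in ImC (-3.32 ± 0.50, adjusted p = 0.00157) and in MatC than in ImC (-2.43 ± 0.49, adjusted p = 0.0183), the latter in 16 of 19 alternatives but not without ImC replicate 1 or MatC replicate 1. Of the prolyl 3-hydroxylase family, Leprel2 was lower in Bone than in ImC (-1.41 ± 0.31, adjusted p = 0.00847). Leprel4, a scaffold protein of that family, was higher (1.14 ± 0.24, adjusted p = 0.00732). Both of these calls ended with library size only. Leprel2 was also lower in MatC than in ImC (-1.36 ± 0.31, adjusted p = 0.0295, kept in 11 of 19), and Leprel4 was higher in Bone than in MatC (1.14 ± 0.24, adjusted p = 0.0249, kept in 13 of 19). These last calls both ended without MatC replicate 1, MatC replicate 3 or any 1 Bone library.

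Of the 3 N-proteinases tested, which cut the other end of procollagen from Bmp1, Adamts2 was higher and Adamts3 lower in Bone than in ImC, and the third did not pass in any of the comparisons. Adamts2 was at 1.4998, 1.04 and 1.71 CPM in ImC, 24.8, 25.5 and 0.849 in MatC, and 54.7, 39.4 and 43.7 in Bone, and was higher in Bone than in ImC (5.02 ± 0.87, adjusted p = 0.00291) in all 19 alternatives. Its MatC to ImC call (3.63 ± 0.83, adjusted p = 0.0289) was kept in 8 of 19, and MatC replicate 3 lay below every ImC library. Leaving out replicate 1 or 2 of either cartilage, or a single Bone library, ended it. Adamts3 was at 65.8, 28.1 and 108 CPM in ImC, 96.7, 54.8 and 139 in MatC, and 20.5, 29.8 and 24.5 in Bone. It was lower in Bone than in MatC (-1.96 ± 0.49, adjusted p = 0.0439, kept in 11 of 19) and than in ImC (-1.43 ± 0.48, adjusted p = 0.0455, kept in 8 of 19, with overlapping libraries). Both calls ended without ImC replicate 1, MatC replicate 1 or any 1 Bone library, the first also without MatC replicate 3 and the second also without ImC replicate 3.

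**Figure D5:**
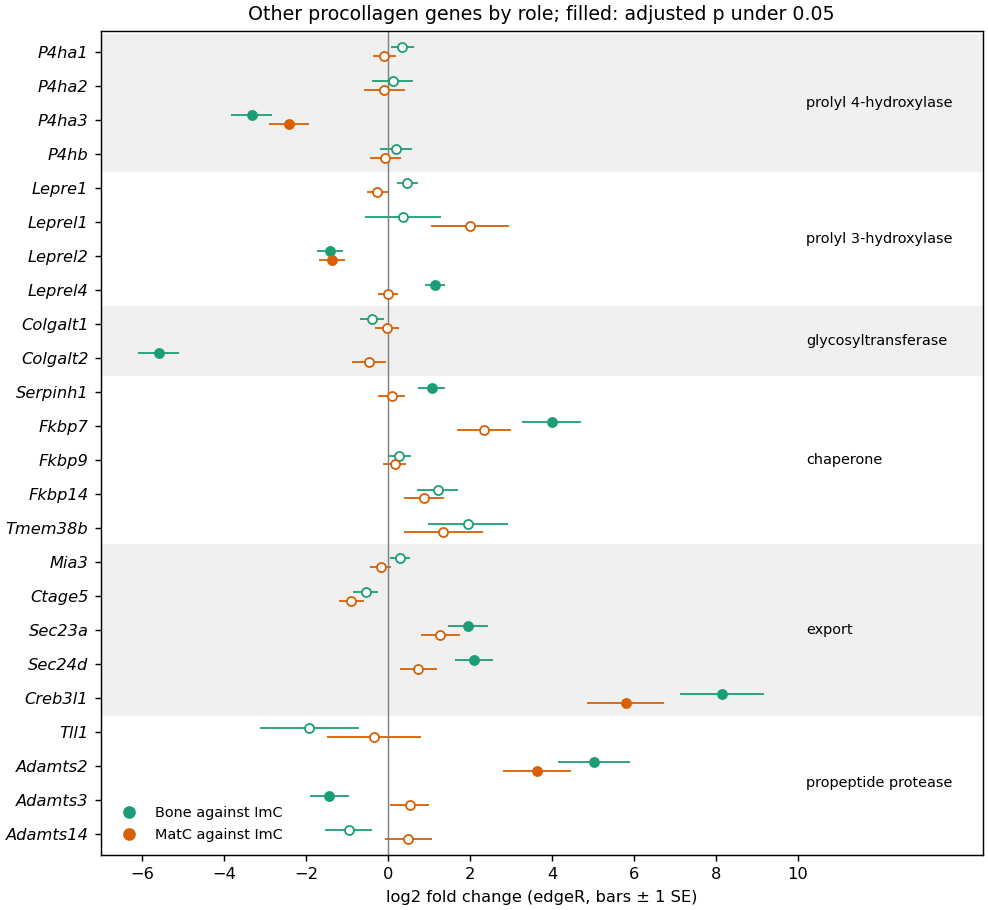
Log2 fold change of the 24 tested entries of the other pathway genes in Bone against ImC and in MatC against ImC, grouped by role, with bars of 1 SE from edgeR and filled points for an adjusted p under 0.05. In Bone against ImC, 7 entries are higher and 4 lower, with Creb3l1 (8.15) and Colgalt2 (-5.60) at the ends.

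The tested genes with profiles most like each member, by Pearson r of log2 CPM over the 9 libraries among genes with a mean of at least 10 CPM, differed from member to member. For Plod2 they were Vrk1 (r = 0.986), Lrp8 (0.981) and Sox9 (0.981). For Plod1 they were Nacc2 (0.982), Farp1 (0.978) and Ctnnal1 (0.966), and for Plod3 Pms2 (0.988), Slc22a21 (0.987) and Kat2a (0.986). Crtap was closest to Apc (0.977), Ebpl (0.973) and Eef2k (0.972), and Ppib to Ptprg (0.995), Slc39a10 (0.994) and Tmem230 (0.987). Fkbp10 was closest to Kctd14 (0.979), Bmp1 to BC026585 (0.965), Pcolce to Nbas (0.972) and Pcolce2 to Lyn (0.926), the lowest best match of the 9. Among the members themselves r was 0.93 for Plod1 with Plod3, 0.90 for Fkbp10 with Bmp1, 0.78 for Crtap with Ppib and -0.97 for Plod3 with Crtap. The 9 points share their tissues, libraries and depths, so these values are descriptions.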

How the data were processed

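Bulk RNA-seq counts were taken from the authors' deposited table of raw counts, whole reads per gene symbol. The submitters' processing notes list HTSeq, edgeR, Bowtie2, TopHat2 and Trimmomatic 0.30 and the build mm10, without their roles. Per the labels' protocols, small RNA inputs were amplified for 1 round before a TruSeq preparation that does not mark strand, so counts of amplified reads are not independent molecules. A second, normalized table was not used.

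Counts were tested with edgeR 4.0.16 (R 4.3.3): TMM scaling, a filterByExpr filter (minimum count 10), 1 fit over the 9 libraries, quasi-likelihood tests, and Benjamini-Hochberg adjustment over all 14257 genes at 0.05. The standard error is the log2 fold change divided by the square root of F, CPM uses TMM factors, and levels per length use the exon union of the GRCm38 annotation. Alternatives used DESeq2 1.42.0 and limma 3.58.1. Exact permutation tests compared group means of family shares, and of log2 ratios to fibrillar procollagen reads, between pairs of tissues. All 9 members were named in every library, every called gene of the pathway list could be named, and likeness took the 3 highest correlations. The members and lists were chosen with earlier results of these data known.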

Additional observations from a re-analysis of the deposited data

How the results depend on the processing

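With 3 libraries a tissue, exact permutation tests could not go below a two-sided p of 0.1. For the 9 members, 160 of 171 alternative values kept direction and side of the threshold in MatC against ImC, 154 of 171 in Bone against MatC, 138 of 171 in Bone against ImC and 151 of 162 at the midpoint, where the fit of only the groups compared was not run. The main counts of members called were 0, 1, 5 and 0. In MatC against ImC the count was 2 with DESeq2, 2 without replicate 3 of both cartilages (an alternative chosen after seeing the data) and 0 to 1 when leaving out 1 library. Of all genes, 772 were called higher and 327 lower in the main fit. These counts were 1373 and 856 with DESeq2, and 1327 and 581 without replicate 3 of both cartilages. In Bone against MatC the count of members was 0 with library size only, 2 with no filter, 3 with DESeq2 and 0 to 2 when leaving out 1 library. Of all genes, 194 were called higher and 669 lower in the main fit. These counts were 119 and 178 with library size only, 445 and 1059 with no filter, and 676 and 1288 with DESeq2. In Bone against ImC the count of members was 2 with library size only, 8 with no filter and 8 with limma-voom. It was 8 without replicate 3 of both cartilages and 4 to 7 when leaving out 1 library. Of all genes, 2039 were called higher and 2393 lower in the main fit, and 1224 and 849 with library size only. These counts were 2387 and 2415 with no filter, 2578 and 2319 with limma-voom, and 2869 and 2756 without replicate 3 of both cartilages. At the midpoint the count of members was 0 to 1 when leaving out 1 library. The causes were not tested.

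The replicate number as a block gave 0 members called in Bone against MatC and 7 in Bone against ImC. Of all genes, that fit called 199 higher and 615 lower in Bone against MatC, and 2056 and 2032 in Bone against ImC. Correlations of same-numbered deviations ran from -0.13 to 0.24, with 2 of 9 pairs over 0.1. Among differently numbered pairs they reached 0.36 (ImC replicate 2 with MatC replicate 1) and -0.40 (ImC replicate 3 with MatC replicate 1). Deviations from means of 3 libraries cannot decide whether the numbers pair the libraries.

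Some small log2 fold changes changed sign. With library size only, Fkbp10 was -0.40 in MatC against ImC; Plod1 was 0.73, Plod3 0.42 and Pcolce2 0.71 in Bone against MatC; and at the midpoint Plod2 was -0.35, Plod3 -0.82, Ppib -0.17, Bmp1 -0.73 and Pcolce2 -0.17. When leaving out 1 library, values ran from -0.013 to 0.72 for Fkbp10 and from -1.38 to 0.11 for Pcolce in MatC against ImC (0.11 with ImC replicate 3 left out, 0.01 with MatC replicate 3 left out), and from -0.47 to 0.012 for Pcolce2 in Bone against MatC. At the midpoint they ran from -0.10 to 0.21 for Plod3 (-0.02 without ImC replicate 1), from -0.39 to 0.67 for Ppib and from -0.013 to 0.54 for Bmp1. Without replicate 3 of both cartilages, Pcolce was 0.46 in MatC against ImC and Plod3 -0.024 at the midpoint. Counted per length, family shares were 8.56% for Plod1 in MatC, and in Bone 14.8% for Plod1, 33.0% for Plod3 and 63.2% for Pcolce.

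Counts over all genes moved by more than 1.5 times: in MatC against ImC from 772 higher (157 to 1373) and 327 lower (48 to 856), in Bone against MatC from 194 (14 to 676) and 669 (153 to 1288), in Bone against ImC from 2039 (1222 to 2869) and 2393 (849 to 2900), and at the midpoint from 425 (70 to 956) and 11 (2 to 157). Library size only moved the median log2 fold change of all genes by -0.54, 0.98, 0.48 and -0.77 in that order of comparisons. It moved the share of called genes that were higher from 70.2% to 53.4%, from 22.5% to 40.1% and from 46.0% to 59.0% in the first 3.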
